A study of Caenorhabditis elegans with 2 samples.

Results

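The regions described here are the places where SWSN-7 was found on transfer RNA (tRNA) genes of Caenorhabditis elegans. SWSN-7 is an ARID-domain subunit of the PBAF form of the SWI/SNF chromatin remodelling complexes, which move or evict nucleosomes. A region was kept when it overlapped a nuclear tRNA gene of the annotation by at least 1 bp. Of 3976 merged regions that passed the authors' test of reproducibility between replicates (IDR, the irreproducible discovery rate), 214 met this rule, or 5.38%. They lay on 227 of the 612 nuclear tRNA genes. None of the 22 mitochondrial tRNA genes was overlapped. Of the 214 regions, 201 held 1 tRNA gene, 13 held 2 and none held more.

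Chromatin immunoprecipitation and sequencing (ChIP-seq) was done on whole hermaphrodites at the L1 larval stage, 6 hours after a synchronization in which bleaching was followed by starvation. Both biological replicates were of strain OP512, genotype unc-119(tm4063) III; wgIs512, which carries the transgene wgIs512 for SWSN-7 with a C-terminal GFP-FLAG tag. Per the sample description the precipitation used an antibody against GFP, whereas the antibody label names swsn-7. There was 1 group of 2 replicates, so no treatment or genotype was compared, and an untagged strain was not analysed here. Whole animals were used, so the cells that gave a region cannot be told apart. The files gave positions and a signal value from the peak caller, which ranks enrichment within 1 list only, and read depth is unknown. Intervals in the text are exact Clopper-Pearson 95% intervals, which cover counting error over genes or regions only. Shares from replicate 1 and replicate 2 alone use the 4087 strongest entries of each, the number in the IDR list.

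tRNA genes are short and are read by RNA polymerase III. Their promoter lies inside the gene, in an A box and a B box that transcription factor TFIIIC binds. TFIIIC then places TFIIIB just upstream of the gene, and TFIIIB brings the polymerase to the start. The polymerase stops at a run of T after the gene. Many tRNA genes occur as identical copies at separate places in the genome, so the same gene sequence can be seen in many surroundings.

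The genes below are members on which the results turn: those of the strongest regions of 4 families of identical copies and the only selenocysteine tRNA gene. Sequences are from the RefSeq WBcel235 (ce11) assembly, 5′ to 3′ on the gene's strand. Capitals mark the B box, searched on the gene's strand only as GGTTCNANN, where N is any base.
C18A11.t2, Arg, anticodon ACG: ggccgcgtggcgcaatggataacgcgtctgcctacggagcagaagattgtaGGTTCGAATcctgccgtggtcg
F46G11.t1, Pro, anticodon TGG: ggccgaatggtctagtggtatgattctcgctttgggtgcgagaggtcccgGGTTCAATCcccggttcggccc
C33G3.t2, Lys, anticodon TTT: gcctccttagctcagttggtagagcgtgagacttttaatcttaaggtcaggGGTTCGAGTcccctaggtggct
C53C7.t1, Ser, anticodon AGA: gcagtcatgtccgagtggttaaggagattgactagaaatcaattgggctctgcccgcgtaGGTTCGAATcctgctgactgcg
K11H12.t1, Sec, anticodon TCA: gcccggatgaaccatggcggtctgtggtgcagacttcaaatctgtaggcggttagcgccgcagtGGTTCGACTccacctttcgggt

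These genes lay at chrX:8036685-8036757 on the minus strand (C18A11.t2), chrX:5801472-5801543 on the plus strand (F46G11.t1), chrX:14063946-14064018 on the minus strand (C33G3.t2), chrX:13046578-13046659 on the plus strand (C53C7.t1) and chrIV:658181-658266 on the plus strand (K11H12.t1). K11H12.t1 lies in an intron of K11H12.8, on the same strand, and the others lie in no intron of a protein-coding gene. The Arg sequence was shared by 10 genes, of which 6 were overlapped. Of the 24 Pro copies 8 were overlapped, of the 14 Lys copies 5, and of the 11 Ser copies 5. The gene sequence is the same in every copy of a family, and only the surroundings differ.

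The 60 bases just before the gene are shown next for a copy in the strongest region of each family and, for comparison, for the first copy by name that no IDR region overlapped. For Arg the weakest overlapped copy is added. Capitals mark the letters TCTCTC or, on the other strand, GAGAGA, a motif picked after the data were seen.
C18A11.t2, Arg, strongest, overlapped: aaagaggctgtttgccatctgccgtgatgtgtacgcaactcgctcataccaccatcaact
T01C1.t1, Arg, weakest, overlapped: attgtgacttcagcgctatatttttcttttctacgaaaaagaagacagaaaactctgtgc
F09B9.t2, Arg, not overlapped: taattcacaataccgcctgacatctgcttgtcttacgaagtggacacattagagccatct
F46G11.t1, Pro, in the strongest region, overlapped: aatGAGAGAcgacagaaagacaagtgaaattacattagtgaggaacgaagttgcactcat
C16B8.t1, Pro, not overlapped: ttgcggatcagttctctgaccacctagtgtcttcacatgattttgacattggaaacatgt
C33G3.t2, Lys, strongest, overlapped: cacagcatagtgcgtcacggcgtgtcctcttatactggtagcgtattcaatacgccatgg
C09B9.t1, Lys, not overlapped: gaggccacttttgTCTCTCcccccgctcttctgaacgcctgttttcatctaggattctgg
C53C7.t1, Ser, strongest, overlapped: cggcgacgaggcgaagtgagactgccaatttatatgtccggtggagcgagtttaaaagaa
F02E11.t1, Ser, not overlapped: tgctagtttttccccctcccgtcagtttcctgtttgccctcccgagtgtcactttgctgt
K11H12.t1, Sec, overlapped: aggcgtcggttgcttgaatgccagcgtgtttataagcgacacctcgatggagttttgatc

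Each window is on its gene's strand: C18A11.t2 at chrX:8036758-8036817, T01C1.t1 at chrX:10732062-10732121, F09B9.t2 at chrX:10148722-10148781 and C33G3.t2 at chrX:14064019-14064078 on the minus strand. On the plus strand were F46G11.t1 at chrX:5801412-5801471, C16B8.t1 at chrX:3969496-3969555, C09B9.t1 at chrIV:5038860-5038919, C53C7.t1 at chrX:13046518-13046577, F02E11.t1 at chrII:3267929-3267988 and K11H12.t1 at chrIV:658121-658180. F09B9.t2 lies in an intron of unc-115 on the opposite strand, and C09B9.t1 and F02E11.t1 lie in introns of C09B9.1 and F02E11.7 on the same strand. GC content was 50% at C18A11.t2, 35% at T01C1.t1 and 43.3% at F09B9.t2. It was 38.3% at F46G11.t1 and 41.7% at C16B8.t1, 51.7% at C33G3.t2 and 53.3% at C09B9.t1, and 50% at C53C7.t1 and 53.3% at F02E11.t1. The summit of the F46G11 region lay at -62 bp from the divergent neighbour F46G11.t2, which has the same sequence, and at -128 bp from F46G11.t1. GC content in single pairs differed in either direction. The comparison over all families is given further on.

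The strongest tRNA regions were spread over many amino acids and lay mostly on the X chromosome. The region on C18A11.t2 had a signal value of 1497 in the IDR list, 603 in replicate 1 and 858 in replicate 2. It ranked 37 among all 3976 regions, 43 in replicate 1 and 36 in replicate 2. Its summit lay 316 bp past the 5′ end of the gene, beyond the 3′ end, so the tRNA gene was not at its centre. The region, chrX:8036056-8036915, was also the widest of the 214 at 860 bp. The summit lay at -4872 bp (upstream) from the nearest protein-coding 5′ end, that of xol-1, the switch gene of sex determination and dosage compensation.

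The next was on C28G1.t1, a Glu gene, with a signal value of 846 in the IDR list, 379 in replicate 1 and 474 in replicate 2. It ranked 182 of all regions, and its summit lay 23 bp downstream of the 5′ end of the protein-coding gene C28G1.2. The third was on the divergent pair M02F4.t1 (Gly) and M02F4.t2 (Glu), with 746 in the IDR list, 335 in replicate 1 and 417 in replicate 2. F41D9.t3, an Asn gene in an intron of sulp-3 (a gene of the sulfate permease family), followed with 741 in the IDR list. A pair of Ser genes, C53C7.t1 and C53C7.t2, had 679, and a pair of Pro genes, F46G11.t1 and F46G11.t2, had 667. C33G3.t2 (Lys, 572), C04E7.t1 (Leu, 571), F15G9.t1 with F15G9.t2 (Ala, 536), R04A9.t1 (Gln, 529) and C06G1.t1 (His, 525) came next. K11H12.t1, the gene for the tRNA that brings selenocysteine to the ribosome, had 519 in the IDR list, 263 in replicate 1 and 250 in replicate 2. It was the highest on an autosome. Of these 12 strongest tRNA regions 11 were on the X chromosome.

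At the other end, the 3 weakest regions lay on M01E10.t1 (Glu, 91.6), Y65A5A.t2 (Ala, 88.9) and T01C1.t1 (Arg, 88.6), close to the lowest value in the IDR list, 88.4. T01C1.t1 has the same gene sequence as C18A11.t2. Its region had 45.4 in replicate 1 and 39.2 in replicate 2. Outside the IDR list, the strongest pooled candidates on tRNA genes were at Y43F4A.t1 (Tyr, 88.2), T09B4.t2 (Ile, 87.6) and C40C9.t1 (Thr, 87.4), just under that lowest value. Few regions touched a tRNA gene only at its edge, and 175 of the 214 (81.8%) held a whole tRNA gene. The smallest overlap was 19 bp, at K09A11.t1, and 2 overlaps were under 30 bp. Of the other IDR regions, 2 lay within 100 bp of a tRNA gene without touching it, 10 and 27 bp away.

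As a whole the tRNA regions were of middling strength. Their median signal value was 189, with quartiles of 122 and 253, against a median of 185 and quartiles of 120 and 329 in the 3762 other IDR regions. Of the 214, 25 (11.7%) were in the strongest 20% of the list. Their median rank was 1949.5 of 3976. On the X chromosome tRNA regions had a median signal value of 212, and on autosomes 176. The other IDR regions had 173 on the X chromosome and 188 on autosomes. The median width was 288 bp in tRNA regions and 363 bp in the others. The upper quartile was 400 bp in both, the exact width of many weaker tRNA regions, so these medians may not measure the extent of binding.

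Summits lay just upstream of the tRNA gene or inside it. The median summit of the 214 regions was 19 bp before the 5′ end (quartiles -30 and 0.5 bp). It was 21 bp before the 5′ end at the same regions in replicate 1 and likewise in replicate 2. Of the 214 summits 160 (74.8%, interval 68.4 to 80.4) lay upstream, 148 of them within 50 bp, 51 lay inside the gene and 3 beyond its 3′ end. The overlap rule itself keeps summits near the gene, since the regions had a median width of 288 bp. In all, 212 summits were within 100 bp of the tRNA gene, against 210 by replicate 1's summits and 212 by replicate 2's. The exceptions were C18A11.t2 and R04A9.t1, whose summit lay 123 bp upstream. A summit differed between the replicates by a median of 12 bp in tRNA regions and 14 bp in other IDR regions, so the offset of 19 bp is of the same order as the replicate error of a single summit. The median offset was -19 bp also for the 108 regions in introns, -20.5 bp where the host gene ran on the same strand and -18.5 bp where it ran on the opposite strand.

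**Figure D1:**
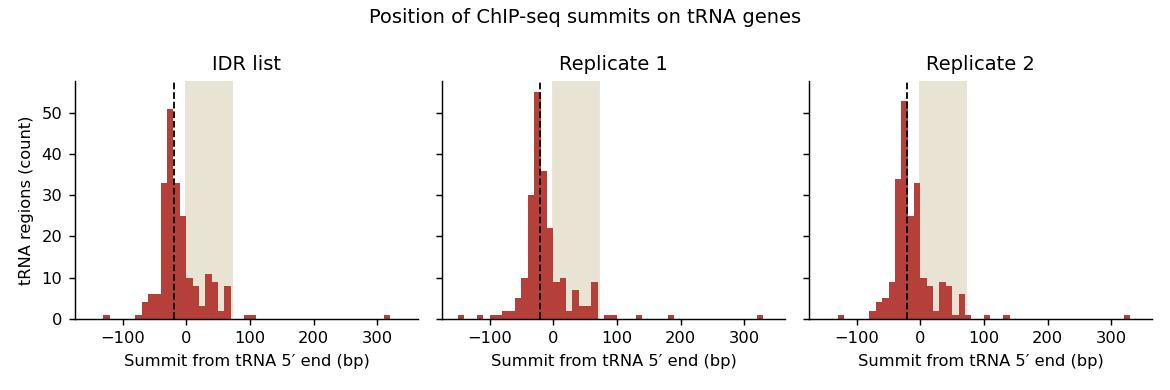
Distance of the summit from the 5′ end of the nearest overlapped tRNA gene along the gene's strand (x axis, bp, bins of 10 bp) against the number of tRNA regions (y axis), for the IDR list and for the same 214 regions in each replicate. The shaded band is the typical gene of 72 bp and the dashed line the median, which is 19 bp upstream in the IDR list and 21 bp upstream in each replicate.

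Overlap with tRNA genes was more frequent than with the other short genes of the annotation. IDR regions overlapped 37.1% of nuclear tRNA genes (interval 33.3 to 41.1). They overlapped 6.34% of all annotated nuclear genes, 9.93% of other genes of 50 to 150 bp and 1.54% of 72 bp tiles of the genome. In replicate 1 alone the share was 39.4% of tRNA genes against 1.59% of tiles, and in replicate 2 alone 34.3% against 1.55%. Among classes of short noncoding RNA, IDR regions overlapped 92 of 346 snoRNA genes (26.6%, interval 22 to 31.6), 29 of 129 snRNA genes (22.5%, interval 15.6 to 30.7) and 13 of 261 miRNA genes (4.98%, interval 2.68 to 8.37). The snoRNA genes guide chemical changes of other RNAs, and the snRNA genes encode RNAs of the spliceosome. Of the tRNA genes, 196 were overlapped in both replicates taken alone, 45 in replicate 1 only and 14 in replicate 2 only.

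tRNA pseudogenes, copies that the annotations mark as having lost function, seldom held a region. IDR regions overlapped 2 of 209 (0.957%, interval 0.116 to 3.41), D1046.t1 and T08B2.t1. Each replicate alone also overlapped 2. Part of this class lies in repeated sequence, where reads are hard to place: on average 95.7% of 32 bp words within 150 bp of a tRNA gene occurred once in the genome, against 78.4% at pseudogenes. Among the 479 tRNA genes with only unique words in their flanks the share overlapped was 42.0% (interval 37.5 to 46.5). Among the 119 such pseudogenes 2 were overlapped (1.68%, interval 0.204 to 5.94). The pseudogenes kept the letters of the promoter to a large extent: 77.0% held the B box, and 99.5% with 1 mismatch.

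All 20 isotypes of the standard amino acids were represented, and none stood apart. An isotype is the amino acid that a tRNA carries. The share of genes overlapped ran down from Glu (21 of 41 genes, 51.2%, interval 35.1 to 67.1) through Leu (18 of 39, 46.2%) and Thr (15 of 34, 44.1%) to Gln (7 of 27, 25.9%), His (5 of 20, 25%) and Trp (3 of 12, 25%, interval 5.49 to 57.2). In replicate 1 Glu had 48.8% and Trp 33.3%, and in replicate 2 Glu had 43.9% and Trp 25%. The interval of each of the 20 isotypes holds 37.1%, the share over all tRNA genes. The share of a single isotype also moved between replicates: Val had 51.6% in replicate 1 and 38.7% in replicate 2. The single Sec gene was overlapped, and none of 5 genes of undetermined isotype was.

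**Figure D2:**
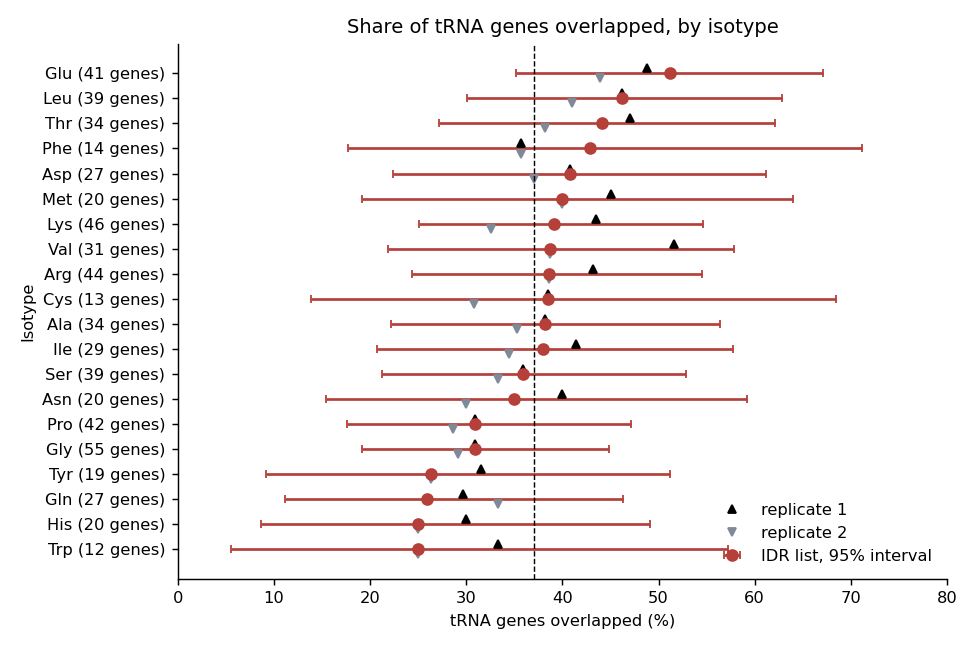
Share of tRNA genes overlapped (x axis, %) for each isotype with 10 or more genes (y axis, number of genes in brackets). Circles are the IDR list with exact 95% intervals, triangles the replicates alone, and the dashed line is the 37.1% of all tRNA genes, which every interval holds.

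By anticodon, the 3 bases that read the codon, 44 of 47 kinds had at least 1 overlapped gene, and the 3 without one comprised 6 genes. The anticodon was found in 599 of 612 genes. The methionine genes serve either to start proteins or to lengthen them. Of the 10 initiator genes, told by their anticodon loop, 4 were overlapped, in the IDR list and in each replicate, and of the 9 other Met genes with the same anticodon 4 were. Within leucine, all 3 genes with anticodon TAG and 5 of 7 with CAA were overlapped, but 4 of 19 with AAG (21.1%, interval 6.05 to 45.6). With so few genes these intervals overlap.

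Each region was assigned to the tRNA gene nearest its summit, and 44.4% of all tRNA regions were on the X chromosome. The strongest region of an isotype lay on X for 17 of 21 isotypes. Those elsewhere were K11H12.t1 (Sec), F57F5.t1 (Ile, signal value 510, chromosome V), C37A2.t1 (Cys, 386) in an intron of cye-1, which encodes cyclin E, and B0523.t1 (Trp, 288) in an intron of fli-1, a homologue of the fly gene flightless. Further examples were R11.t1 (Tyr, 404), F17H10.t1 (Gly, 403) in an intron of snx-17, R04D3.t2 (Val, 394) and T28B4.t1 (Phe, 327) in an intron of fbxl-4. R01H5.t1 (Thr, 323), C02F12.t1 (Met, 320) and F52H2.t1 (Asp, 270) in an intron of aat-3, a gene of the amino acid transporter family, completed the set. The 12 strongest tRNA regions other than that at M02F4 are also in this set. The M02F4 region, with 746, also held a Gly gene but was assigned to Glu.

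The X chromosome carries many of the tRNA genes of this animal, and the regions followed the genes. Of the 214 tRNA regions 95 (44.4%) were on X, against 630 of the 3762 other IDR regions (16.7%). X held 276 of the 612 tRNA genes (45.1%). The share overlapped was 103 of 276 genes on X (37.3%, interval 31.6 to 43.3) and 124 of 336 on autosomes (36.9%, interval 31.7 to 42.3). In replicate 1 it was 39.9% on X and 39.0% on autosomes, and in replicate 2 it was 35.9% on X and 33% on autosomes. Among autosomes the share was lowest on V, at 22 of 78 (28.2%, interval 18.6 to 39.5), and highest on II, at 25 of 57 (43.9%, interval 30.7 to 57.6). On chromosome X 13.1% of all IDR regions lay on tRNA genes, and on I 2.95%.

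tRNA genes with another tRNA gene close by were overlapped less often than lone ones. Of 236 genes with a neighbour within 1000 bp, 59 were overlapped (25%, interval 19.6 to 31.0), against 168 of 376 isolated genes (44.7%, interval 39.6 to 49.9). Replicate 1 gave 27.5% and 46.8%, with the clustered genes lower by 19.3 percentage points, and replicate 2 gave 22% and 42.0%, lower by 20 points. The intervals do not overlap, but they treat genes as independent. Neighbours can share a region, as 13 regions each held 2 tRNA genes, so the interval of the clustered genes may be too narrow. The 2 replicates' differences lie within 1 point of each other. The difference of -19.7 points was smaller in the stronger 1988 IDR regions, at -10.0. It was -9.45 over distinct sequences, each counted as overlapped if any of its copies in the class was. By distance to the nearest other tRNA gene, the share showed no growth within 1000 bp and was higher beyond 5000 bp. It was 26.6% up to 200 bp, 21.3% up to 500 bp, 25.8% up to 1000 bp, 30.3% up to 5000 bp, 44.7% up to 20000 bp and 50.7% beyond.

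The same held on X, with 25.9% of clustered and 48.2% of isolated genes overlapped, and on autosomes, with 23.8% and 42.6%. GC content in the 60 bp before the gene averaged 40.2% at clustered genes and 44.1% at isolated ones, and its part was not tested. Repeated sequence also moves with clustering, so the genes with only unique words in their flanks were also taken alone. There 39 of 153 clustered genes (25.5%, interval 18.8 to 33.2) and 162 of 326 isolated genes (49.7%, interval 44.1 to 55.3) were overlapped. Neighbouring pairs within 1000 bp were also grouped by orientation. Genes in divergent pairs, whose 5′ ends face each other, were overlapped in 15 of 102 cases (14.7%, interval 8.47 to 23.1), those in tandem pairs in 27 of 99 (27.3%, interval 18.8 to 37.1) and those in convergent pairs in 19 of 56 (33.9%, interval 21.8 to 47.8). A gene can belong to 2 pairs, neighbouring intervals overlap, and the difference was not tested.

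Divergent pairs that were overlapped nevertheless gave some of the strongest regions. Of the 13 regions that held 2 tRNA genes, 6 were on divergent pairs, 3 on tandem and 4 on convergent ones. Their signal values ran between 93.3, at the Gly pair T10B10.t1 and T10B10.t2, and 746, at M02F4.t1 and M02F4.t2. The 3 highest, at the M02F4, C53C7 and F46G11 pairs, were divergent with 116, 130 and 189 bp between the genes. In each, the summit lay between the genes, 53 to 65 bp from the nearer one. In 42 of the 51 divergent pairs neither gene was overlapped.

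Every family of 8 or more identical genes held both overlapped copies and copies with no region. The 612 genes comprised 200 distinct sequences, of which 143 belonged to 1 gene and 57 to 2 or more. Of these 57, 41 had copies of both kinds, 6 had all copies overlapped and 10 had none. The families of 8 or more genes numbered 25. Genes with a sequence of their own were overlapped in 33 of 143 cases (23.1%, interval 16.4 to 30.9), against 194 of 469 genes with identical copies (41.4%, interval 36.9 to 46.0). Replicate 1 gave 23.1% and 44.3%, and replicate 2 gave 23.1% and 37.7%. Among isolated genes the shares were 28.0% and 50.7%. The treatment of reads matching more than 1 copy is unknown from the sources used here. Copies lie in different flanks. On average 95.1% of the 32 bp words around genes with a sequence of their own and 95.9% of those around genes with identical copies occurred once in the genome.

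The bases upstream of the gene differed in composition between overlapped and other tRNA genes. This pattern was noticed in the data and is described here without a test. In the 60 bp before the 5′ end, GC content had a median of 46.7% (quartiles 41.7 and 51.7) at the 227 overlapped genes and 40% (quartiles 33.3 and 46.7) at the 385 others. The genome has 35.4%. Mean GC content was higher by 7.05 percentage points at overlapped genes, by 7.09 with replicate 1's regions and by 7.18 with replicate 2's. Inside the gene the median was 58.3% in both, where many families put identical copies into both groups. The difference reached its largest size between 60 and 30 bp before the gene. From 50 to 41 bp before it, overlapped genes averaged 48.6% and the others 37.5%, and in the last 10 bp before it 47.8% and 46.8%.

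**Figure D3:**
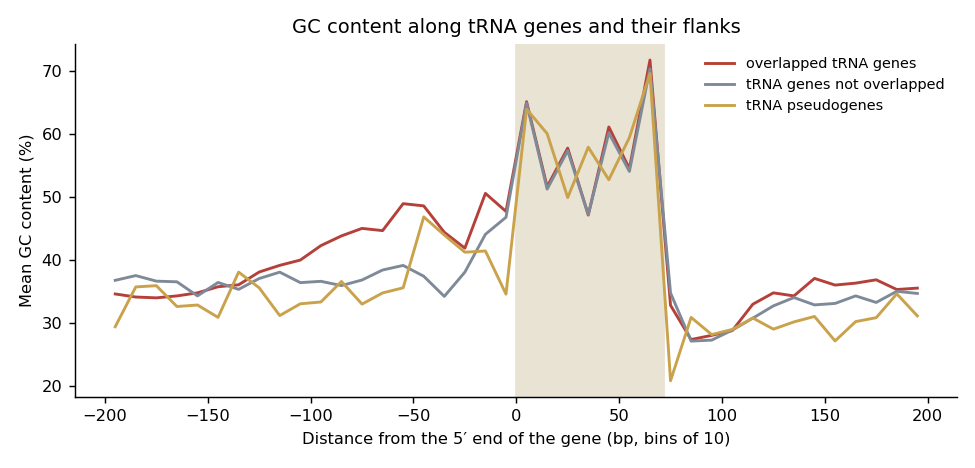
Mean GC content (y axis, %) in bins of 10 bp along the gene's strand, from 200 bp before the 5′ end to 200 bp after it (x axis), for 227 overlapped tRNA genes, 385 tRNA genes not overlapped and 209 tRNA pseudogenes. The first 2 curves lie together inside the gene (shaded band, typical gene of 72 bp) and separate upstream, at 48.6% and 37.5% in the bin from 50 to 41 bp before it.

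Grouped by that upstream GC content, 1 of 42 genes under 30% was overlapped (2.38%, interval 0.0603 to 12.6), 37 of 184 genes between 30 and 40% (20.1%, interval 14.6 to 26.6), 106 of 239 between 40 and 50% (44.4%, interval 37.9 to 50.9) and 83 of 147 at 50% or more (56.5%, interval 48.0 to 64.6). The same order held in replicate 1, with 2.38, 20.7, 49.4 and 57.1%. In replicate 2 the shares were 0, 16.8, 42.7 and 52.4%. Tiles of 72 bp anywhere in the genome, grouped by the 60 bp before them on the plus strand, were overlapped in 1.02, 1.17, 1.77 and 4.08% of cases, so regions in general also lay more often by GC-rich sequence. Among pseudogenes 74 had an upstream GC content of 50% or more, and 1 of these was overlapped. GC content can affect how well fragments are amplified and sequenced, and its part in these shares was not tested.

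Identical genes set against each other gave the same picture. In the 41 families with copies of both kinds, the mean upstream GC content of the overlapped copies was higher in 37 and lower in 4, with a median difference of 6.33 percentage points. In the Arg family with anticodon ACG, 6 overlapped copies averaged 45.6% and 4 others 33.8%, in the Pro family 8 averaged 43.8% and 16 others 38.1%, and in the Lys family 5 averaged 52.0% and 9 others 43.3%. In the Ser family 5 averaged 49.7% and 6 others 37.2%. The ranges overlap within each family. In the same 41 families the share of clustered copies was lower among overlapped copies in 27, higher in 5 and equal in 9.

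A short motif was also more frequent upstream of overlapped genes. It was picked by comparing 6-letter words between overlapped and other genes, so its difference is a description that the choice itself favours, and the intervals do not allow for that choice. TCTCTC, searched on both strands in the 60 bp, was present at 52 of 227 overlapped genes (22.9%, interval 17.6 to 28.9), 20 of 385 others (5.19%, interval 3.20 to 7.91) and 5 of 209 pseudogenes. Of all 60 bp windows of the genome 3.07% hold it. Read the other way, 52 of 72 tRNA genes with the motif were overlapped (72.2%, interval 60.4 to 82.1), 53 in replicate 1 and 51 in replicate 2, against 175 of 540 without it (32.4%, interval 28.5 to 36.5). Of tiles anywhere in the genome, 6.37% with the motif in the 60 bp before them and 1.39% without it were overlapped. The match was TCTCTC on the gene's strand 45 times and GAGAGA 26 times at overlapped genes. Among genes with the motif, 14 of 20 clustered genes (70.0%, interval 45.7 to 88.1) and 38 of 52 isolated genes (73.1%, interval 59.0 to 84.4) were overlapped. A match is a run of letters and not a shown site of any factor.

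The B box and the run of T after the gene were about as frequent in both groups. For the B box this was partly fixed in advance, since 41 of the 57 repeated sequences had copies in both groups. The A box was not searched. The B box was present in 197 of 227 overlapped genes (86.8%, interval 81.7 to 90.9) and 333 of 385 others (86.5%, interval 82.7 to 89.7). A tile of 72 bp holds these letters on 1 strand in 1.18% of cases. With 1 mismatch allowed, 227 and 384 genes held it. A run of 4 T within 25 bp after the gene was present at all 227 overlapped genes and at 377 of 385 others (97.9%, interval 95.9 to 99.1), against 31.2% of windows of that length.

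**Figure D4:**
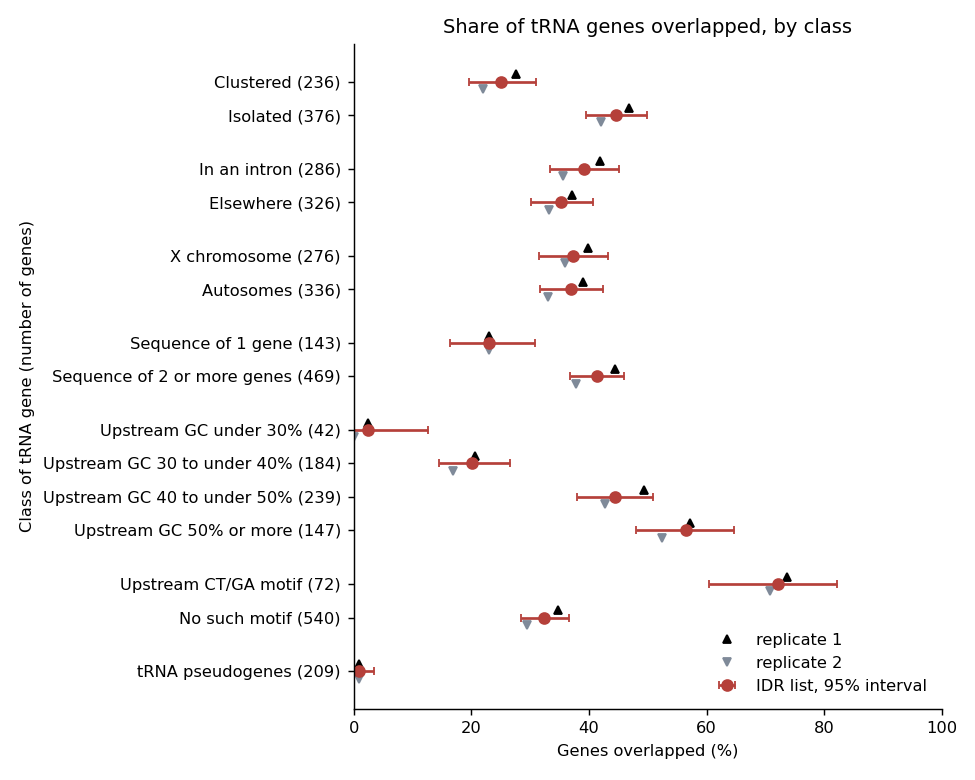
Share of genes overlapped (x axis, %) for classes of tRNA gene and for tRNA pseudogenes (y axis, number of genes in brackets). Circles are the IDR list with exact 95% intervals, and triangles are the replicates alone. In the IDR list the shares run from 0.957% of pseudogenes to 72.2% of tRNA genes with the upstream motif, and the intron and chromosome classes lie close together.

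tRNA regions lay mostly outside the promoters of protein-coding genes, where most other regions were found. A promoter window ran from 1000 bp upstream to 500 bp downstream of a protein-coding 5′ end, and 62.8% of all IDR regions had their summit in one. Of tRNA regions 63 of 214 did (29.4%, interval 23.4 to 36.0), against 2435 of 3762 other IDR regions (64.7%, interval 63.2 to 66.3). Replicate 1 gave 27.3% against 63.9%, and replicate 2 gave 29.1% against 64.3%. The median distance to the nearest protein-coding 5′ end was 1405 bp for tRNA regions and 381 bp for the others. Within 5000 bp lay 95.3% of tRNA regions and 95.9% of the others. Of the 612 tRNA genes themselves, 171 had their 5′ end in a promoter window, and overlap did not follow these windows. Of the 171 genes 62 were overlapped (36.3%, interval 29.1 to 43.9), against 165 of 441 outside (37.4%, interval 32.9 to 42.1).

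Introns are a common place for tRNA genes in this genome, and the shares overlapped there and elsewhere lay within each other's intervals. Of 286 tRNA genes in introns of protein-coding genes 112 were overlapped (39.2%, interval 33.5 to 45.1), against 115 of 326 elsewhere (35.3%, interval 30.1 to 40.7). The share was 39.6% on the host's strand (65 of 164) and 38.5% on the other strand (47 of 122). The 112 genes lay in 106 host genes. At the host's own promoter, 16 of these 106 hosts (15.1%, interval 8.88 to 23.4) had another IDR summit in the window. Of the 116 hosts whose tRNA genes were all without a region 15 did (12.9%, interval 7.42 to 20.4). Over all 19973 protein-coding genes it was 15.9%.

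The replicates ranked the tRNA regions differently from the rest. All 214 were found in both replicates' full candidate lists, as were 3752 of the 3762 other IDR regions. The IDR list had passed a test of reproducibility, so this was largely fixed in advance. The median rank of tRNA regions by signal value was 1774 in replicate 1 and 2129.5 in replicate 2, whereas other IDR regions had 1998.5 and 1976. Each full list held 30000 entries, or 26430 and 26755 after merging. Of the tRNA regions 169 (79.0%, interval 72.9 to 84.2) ranked better in replicate 1, against 47.8% of the others. On X 75.8% of tRNA regions and 38.2% of others did, on autosomes 81.5% and 49.7%, and outside promoter windows 79.5% and 46.2%. In the 5 groups of equal size by signal value the share among tRNA regions was between 68.0 and 88.0% and that among others between 46.4 and 48.8%. With 2 replicates the spread of this difference is not known. The strongest 4087 entries of replicate 1 covered 209 of the 214 regions (97.7%), and those of replicate 2 covered 196 (91.6%). Of the other IDR regions they covered 89.8% in replicate 1 and 93.0% in replicate 2.

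**Figure D5:**
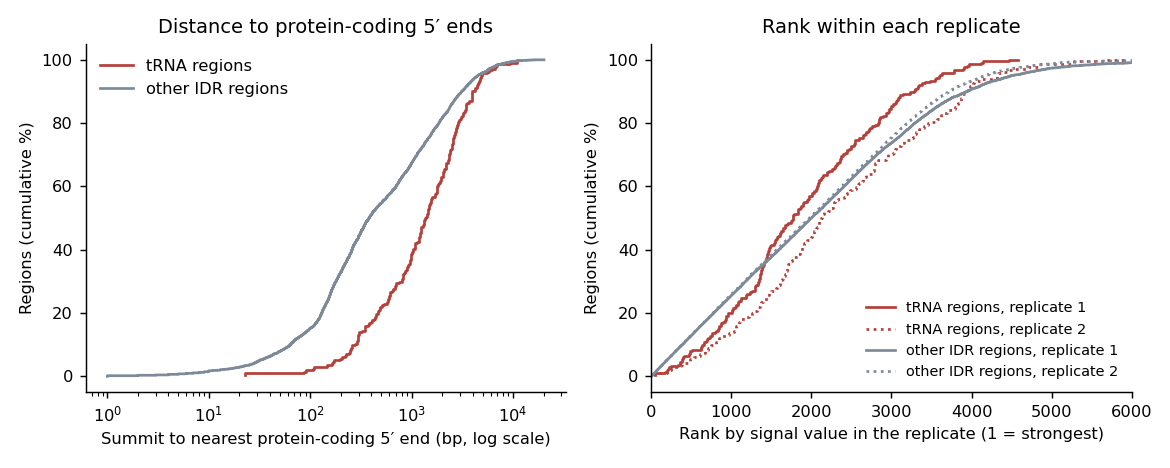
Left, cumulative share of regions (y axis, %) by distance from the summit to the nearest protein-coding 5′ end (x axis, bp, log scale) for 214 tRNA regions and 3762 other IDR regions, with medians of 1405 and 381 bp, and right, cumulative share (y axis, %) by rank within each replicate's list (x axis). The tRNA curve of replicate 1 lies left of that of replicate 2, with medians of 1774 and 2129.5, and the 2 curves of other regions lie close together.

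Few other genes that polymerase III reads could be assessed. None of the 16 listed 5S rRNA genes (rrn-4) was overlapped, but the interval reaches 20.6% and so holds the 9.93% of other short genes. The 5S genes are known as near-identical repeats, the placing of reads there is unknown, and the U6 genes were not assessed. yrn-1, which encodes a Y RNA, was not overlapped. rpr-1, which encodes the RNA of RNase P, the enzyme that trims the 5′ end of tRNAs, was overlapped with a signal value of 582 in the IDR list, 327 in replicate 1 and 253 in replicate 2. Of 14 protein-coding genes of the polymerase III and tRNA machinery found in the annotation, in 5 the promoter window held an IDR summit (35.7%, interval 12.8 to 64.9), with 15.9% of all protein-coding genes as background. They were tftc-1, for a subunit of TFIIIC (signal value 366), rpac-19, for a subunit shared by polymerases I and III (258), snpc-4, for a factor of small nuclear RNA genes (246), rtcb-1, for the ligase that joins tRNA pieces after their intron is cut out (187), and rpc-1, for the largest subunit of polymerase III (92.2). brf-1, tbp-1, tftc-3, tftc-5, rpc-2, rpc-11, rpac-40, hoe-1 and mafr-1, the repressor of polymerase III, had none.

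Weak candidates were frequent at the tRNA genes left out. Candidates of the pooled list, which runs far below the IDR threshold, overlapped 199 of the 385 other tRNA genes (51.7%, interval 46.6 to 56.8), and at 157 of them the summit was within 100 bp. At 4 others the candidate was a wider stretch joined to an IDR region that itself did not reach the gene. Counted with or without an IDR region, pooled candidates overlapped 426 of all 612 tRNA genes (69.6%). Counted in the same way, they overlapped 24 of 209 pseudogenes (11.5%, interval 7.5 to 16.6), 36.1% of other genes of 50 to 150 bp and 12.8% of tiles. A tRNA gene without an IDR region is thus not shown to be free of the protein.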

How the data were processed

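The data were lists of enriched regions in the ENCODE narrowPeak layout from 2 biological replicates of 1 group. The authors deposited 30000 candidate regions per replicate and 30000 from both pooled, made as input for IDR relative to a control, and the list of 4087 that passed IDR. The deposited signal value is a score of enrichment with no fixed range, and the deposited −log10 q-value shares a ceiling and was not used to rank. Aligner, peak caller, duplicate treatment and the placing of multiply matching reads were not given in the sources used here. Lists of build ce11 were used, and the control reads were not analysed here. Read depth is unknown, so no depth-based interval is given.

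Overlapping entries were merged, keeping the strongest signal value and its summit. Genes, biotypes and introns came from Ensembl release 115 of WBcel235, and isotypes, tRNA pseudogenes and sequence from RefSeq of the same assembly. Uniqueness of flanks was measured as the share of 32 bp words within 150 bp of a gene that occur once in the genome. Shares have exact Clopper-Pearson 95% intervals (scipy 1.17.1, with pandas 2.3.3 and numpy 2.4.6), and no test was run, since 1 group allows no comparison over samples. The overlap and summit steps were tested on simulated data. Labels call the replicates biological, and no number pairs them with anything.

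The members and gene lists were chosen with earlier results of these data known. Genes named are those of the 12 strongest and 3 weakest tRNA regions, the strongest of each isotype, their hosts and neighbours, and the polymerase III lists. Genes at the edge of the overlap rule, the weakest pair of genes, the strongest candidates outside the IDR list, the overlapped pseudogenes and the copies without a region shown for comparison were named after their values were seen. rpc-9 and the U6 genes were not matched in the annotation and were not assessed. Alternatives were each replicate alone, the stronger part of the IDR list, whole-gene overlap, other windows and distances, and subsets of genes.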

Additional observations from a re-analysis of the deposited data

How the results depend on the processing

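No paired analysis was possible because there is 1 group. Of 75 recomputed values of 14 results, 31 were called the same, 39 moved and 5 changed sign. A value was called the same if it moved by less than the spread between replicates. The counts of regions and of machinery genes were instead judged by a fixed ratio. The spread between replicates rests on 2 lists only.

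With each replicate alone, the share of tRNA genes overlapped was 34.3 to 39.4%, the regions numbered 199 to 231, the share on X minus that on autosomes was 0.867 to 2.83 percentage points, and the median summit lay at -22 to -20 bp. The share of tRNA regions in promoter windows was 27.3 to 29.1%, the range among isotypes 18.9 to 22 points, the median percentile rank 48.2 to 51.7, and the B box difference (overlapped minus other genes) -0.625 to 0.199 points, where the sign changed in replicate 2.

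With the stronger 1988 IDR regions only, there were 111 tRNA regions on 19.3% of tRNA genes. X minus autosomes was then 4.48 points, the summit -24 bp, the promoter share 27.9%, intron minus elsewhere 1.87, clustered minus isolated -10.0, the isotype range 18.1, single minus repeated sequences -10.6, and the B box difference changed sign to -0.199. Where the whole gene had to lie in a region, the share was 29.7%, X minus autosomes changed sign to -0.712, clustered minus isolated was -16.7, the isotype range 33.6 and the B box difference 1.87. Over distinct sequences, each counted as overlapped if any of its copies in the class was, X minus autosomes changed sign to -1.95. Intron minus elsewhere was then 0.417 and clustered minus isolated -9.45. A sequence could count in both classes.

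Among genes with unique flanks, a choice made after seeing the data, the share was 42.0%, X minus autosomes changed sign to -0.483, intron minus elsewhere was 0.809, clustered minus isolated -24.2 and the isotype range 31.5. Promoter windows of 300 bp on each side held 12.6% of tRNA regions, and windows reaching 2000 bp upstream held 47.2%. Clustered minus isolated was -22.7 points with a cluster distance of 5000 bp, and -22.7 among sequences of 2 or more genes, also chosen after seeing the data. Upstream GC and motif differences, likewise added, stayed positive, at 6.04 to 7.49 and 13.8 to 26.3 points. The cause of these moves was not tested.

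X against autosomes and the B box took either sign, while the clustered and single-sequence differences stayed negative under each alternative listed for them. Unknown depth and the unknown placing of multiply matching reads limit what the absence of a region at a tRNA gene can show.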
